A study of Mus musculus with 6 samples.

Results

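The core pluripotency network was followed in whole embryos that lack normal ZIC2, through the 10 genes *Nanog*, *Pou5f1*, *Sox2*, *Klf2*, *Klf4*, *Esrrb*, *Zfp42*, *Utf1*, *Lin28a* and *Sall4*. Every array probe annotated to 1 of these symbols, or to the older symbol Lin28, was taken, which gave 21 of 45281 probes and 10 of the 19057 genes that carry a symbol. Embryos came from intercrosses of *Zic2* iso/+ parents on the C3H/HeH strain and were harvested whole at E8.0 to E8.5, during the early somite stages. The iso allele was recovered in a chemical (ENU) mutagenesis screen and places a premature stop codon in the fifth zinc finger of *Zic2*, a transcription factor of the epiblast, the node and the neural plate. There were 3 pools of *Zic2* iso/iso embryos and 3 pools of wildtype embryos, each of 8 stage-matched embryos, and RNA from each pool was hybridised to 1 Illumina Mouse WG6 v2 array. The comparison asks which genes change when ZIC2 is disrupted as left-right asymmetry is established. All mutant pools carry the same allele from 1 line, and p-values measure the spread between pools, not between single embryos.

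NANOG, OCT4 (the product of *Pou5f1*) and SOX2 are transcription factors that keep cells of the early embryo able to form every tissue, and they bind many of the same regulatory elements, including those of their own genes. KLF2, KLF4, ESRRB and REX1 (the product of *Zfp42*) belong to the naive state of the epiblast before implantation, whereas *Pou5f1* and *Nanog* persist into the gastrulating epiblast and retreat towards its posterior end before they are silenced in somatic cells. Primordial germ cells keep or regain much of the network, *Sox2* marks the neural plate, and *Lin28a* and *Sall4* are expressed broadly in embryos of this age.

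The deposited intensities carry no background subtraction, with a median of 187, 164 and 154 in the *Zic2* iso/iso pools and of 164, 164 and 158 in the wildtype pools, and they were converted to log2 and quantile normalised. A background level of 7.47 on the log2 scale was set from 1608 probes of gene families not expected in embryos, and 40.7% of all probes had a mean above it. Pearson's r across probes was 0.993 to 0.995 between pools, a description only because probes are not independent. The targeted gene read 7.64, 7.57 and 8.01 in the *Zic2* iso/iso pools against 8.27, 8.06 and 8.00 in the wildtype pools at its brighter probe (pools 1 to 3 in order, here and throughout) (difference −0.37 on the log2 scale, limma adjusted p = 0.614), and its dimmer probe differed by 0.12. The *Zic2* values of the genotypes overlapped at both probes, and neither probe is known to read the stop codon itself, so the labels were not checked by the array. In the *Zic2* iso/iso group, the globin genes *Hbb-bh1* and *Hba-x* were highest in pool 1 and lowest in pool 3, as was the mean of the primitive blood markers. The blood genes *Klf1* and *Alas2* were highest in pool 2 and lowest in pool 3. Values that touch the pluripotency genes are given with these markers.

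No probe of the 10 genes passed an adjusted p of 0.05 in limma over all probes, where 20 probes, or 0.0442%, passed (2 higher and 18 lower in *Zic2* iso/iso, 0.00442% and 0.0398%). Before adjustment, 7 of the 21 probes had a p under 0.05 (5 higher, 2 lower), against 6.02% of all probes (2.94% higher, 3.08% lower). At 8 of the 21 probes the pools of the genotypes did not overlap, with *Zic2* iso/iso higher at 6 and lower at 2, where 10.6% of all probes did not overlap (5.18% higher, 5.46% lower). Of the 6 higher probes, 3 had a mean below the background level, and both lower probes had a mean above it. Probes of 1 gene share its RNA, so these counts are not counts of independent events. Over the brightest probe of each gene, the genotypes did not overlap at 5 of 10 genes, *Nanog*, *Pou5f1*, *Zfp42* and *Utf1* being higher in *Zic2* iso/iso pools and *Klf2* lower. The means of *Zfp42* and *Utf1* lay below the background level. Of the 7 members above it, 2 were higher and 1 lower without overlap. Over all 10439 genes above it, 4.88% were higher and 7.15% lower in this way. The median difference of the 10 genes was 0.10 on the log2 scale, beside −0.004 over all 19057 genes. For the 7 members above the background level it was 0.07, beside −0.007 over the 10439 genes above it. An exact permutation test of 3 pools against 3 cannot go below 0.1, and each of the 8 probes without overlap reached that limit.

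*Nanog*, a homeobox gene, stood nearest to the threshold. Its brighter probe (ILMN_2706623) gave log2 intensities of 8.53, 8.38 and 8.13 in the *Zic2* iso/iso pools, against 7.85, 7.83 and 7.68 in the wildtype pools. Every *Zic2* iso/iso pool was above every wildtype pool, and the lowest *Zic2* iso/iso value was that of pool 3. The means were 8.35 ± 0.20 in *Zic2* iso/iso and 7.79 ± 0.09 in wildtype (SD, n = 3 each), a log2 difference of 0.56 with a standard error of 0.09 and a 95% interval of 0.36 to 0.76, or 1.47-fold (limma adjusted p = 0.084; exact two-sided permutation p = 0.1). The probe ranked 29 by p among 45281 and lay at the 99.9th percentile of absolute differences, although its level was moderate, at the 74.9th percentile of all probes. As deposited, before any normalization, its intensities were 457, 331 and 253 in the *Zic2* iso/iso pools and 225, 228 and 194 in the wildtype pools, so that the order of the genotypes was already present in the linear values.

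The call for *Nanog* depended on the processing. The paper, which used a variance stabilising normalisation of these same arrays, lists *Nanog* among its significantly upregulated genes. The probe passed the threshold in 5 of 14 other settings, with an adjusted p of 0.029 after normexp background correction and 0.023 after a variance stabilising normalisation, each with a log2 difference of 0.77 (1.70-fold after normexp), and 0.0166 where the variance prior followed intensity. Leaving out *Zic2* iso/iso pool 3 raised the difference to 0.67 (adjusted p = 0.0204), whereas leaving out pool 1, the highest, lowered it to 0.46 (adjusted p = 0.251). It was higher in *Zic2* iso/iso in all 14, which ranged over differences of 0.46 to 0.77 and adjusted p-values of 0.0166 to 1.0. The dimmer *Nanog* probe (ILMN_1245732) gave 7.41, 7.47 and 7.57 in *Zic2* iso/iso pools and 7.40, 7.38 and 7.26 in wildtype pools. These values lie at the background level, and although they did not overlap, the difference of 0.14 (95% interval −0.02 to 0.29, adjusted p = 0.885) is between levels that the array does not separate from unexpressed genes.

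**Figure D1:**
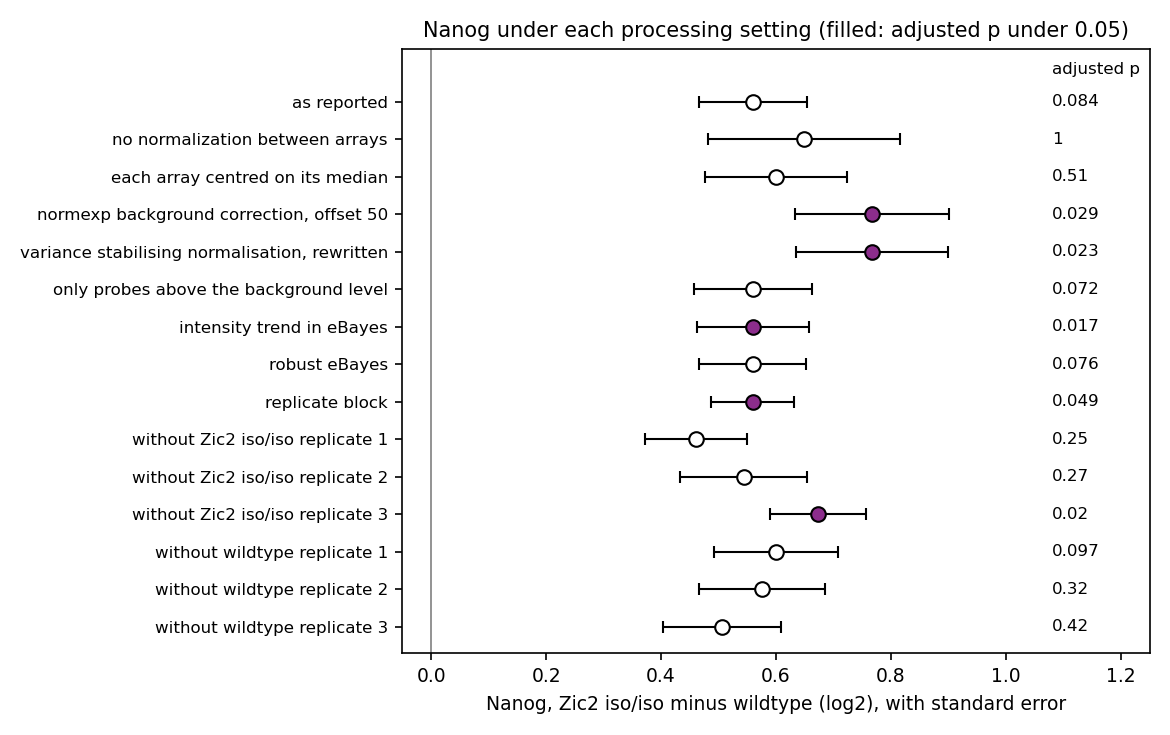
Log2 difference of the brighter *Nanog* probe, *Zic2* iso/iso minus wildtype, on the horizontal axis with its standard error, as reported and under 14 other settings (one per line, adjusted p at the right, filled points under 0.05). All points lie above 0, between 0.46 and 0.77, and 5 of the 14 other settings are filled.

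*Pou5f1*, which encodes the POU-domain factor OCT4, was read by 2 probes above the background level, and both separated the genotypes. Probe ILMN_1217100 gave 10.18, 10.11 and 10.34 in *Zic2* iso/iso pools and 9.90, 9.92 and 9.69 in wildtype pools, and probe ILMN_1252910 gave 10.31, 10.03 and 10.26 in *Zic2* iso/iso pools and 9.87, 9.90 and 9.74 in wildtype pools. At both probes the *Zic2* iso/iso pools lay above all wildtype pools and the lowest value was that of wildtype pool 3. The means of the first were 10.21 ± 0.12 in *Zic2* iso/iso and 9.84 ± 0.13 in wildtype (SD, n = 3 each). The log2 difference was 0.37 with a standard error of 0.08 (95% interval 0.19 to 0.55), or 1.30-fold, at the first probe and 0.36 with a standard error of 0.08 (95% interval 0.18 to 0.54) at the other. Neither passed (limma adjusted p = 0.282 and 0.328), and they ranked 105 and 118 of 45281 probes by p. Both are assigned to the same transcript, so they are repeat readings of 1 RNA and not separate evidence. The difference of the first ranged from 0.30 to 0.46 over the 14 other settings and of the second from 0.31 to 0.45, and no setting brought either past the threshold. RefSeq lists pseudogene copies of *Nanog*, *Pou5f1* and *Zfp42*, and whether the probes also read these was not tested. In RNA of whole embryos, more cells with *Nanog* or *Pou5f1* RNA and more RNA per cell cannot be told apart.

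**Figure D2:**
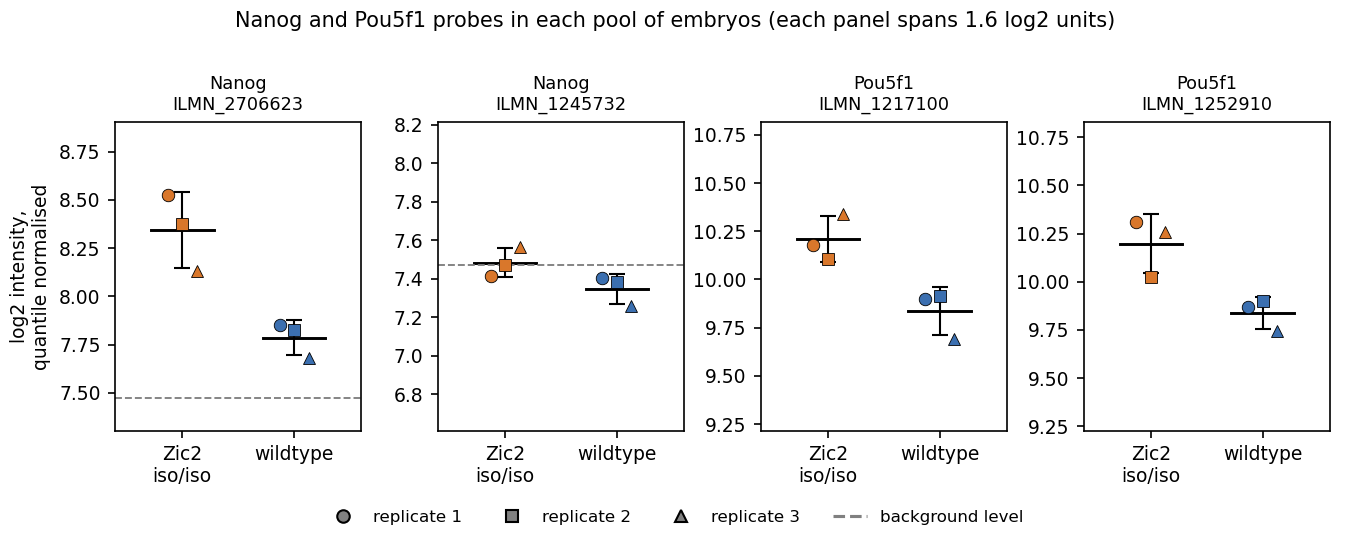
Log2 intensity after quantile normalisation (vertical axis) of both *Nanog* and both *Pou5f1* probes in the 3 *Zic2* iso/iso pools and the 3 wildtype pools, with points for pools, a long bar for the mean, whiskers for the SD and a dashed line for the background level where it falls in the panel. The genotypes do not overlap in any panel, and the dimmer *Nanog* probe lies at the background level of 7.47.

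The windows around the start sites of *Nanog* and *Pou5f1* are printed because these were the members above the background level whose brightest probe was higher in every *Zic2* iso/iso pool. Each window runs from 250 bases before to 50 bases after a transcription start, 5′ to 3′ on the gene's strand, from RefSeq on GRCm38.p6. Capitals mark matches, on either strand, to any of these motifs: octamer ATGCAAA, bound by OCT4; SOX core CATTGT; ZIC core CCTGCTG; ESRRB core TCAAGGTCA; KLF box CCCCACCC; GC box GGGGCGG. The *Nanog* window is at chr6:122707239-122707538 (+) and the *Pou5f1* window at chr17:35505782-35506081 (+).
Nanog: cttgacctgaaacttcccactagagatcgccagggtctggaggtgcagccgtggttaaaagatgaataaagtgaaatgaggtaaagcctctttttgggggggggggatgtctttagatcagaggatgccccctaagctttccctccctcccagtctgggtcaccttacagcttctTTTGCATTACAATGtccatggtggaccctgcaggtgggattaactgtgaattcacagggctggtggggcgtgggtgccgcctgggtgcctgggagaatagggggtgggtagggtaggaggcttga
Pou5f1: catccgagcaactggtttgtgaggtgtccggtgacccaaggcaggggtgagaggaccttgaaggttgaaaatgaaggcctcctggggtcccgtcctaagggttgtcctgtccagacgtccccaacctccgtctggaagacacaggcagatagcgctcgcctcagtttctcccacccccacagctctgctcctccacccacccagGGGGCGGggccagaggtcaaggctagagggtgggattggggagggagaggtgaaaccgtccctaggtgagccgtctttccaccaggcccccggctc
In the *Nanog* window, a SOX core and an octamer stand 1 base apart on the reverse strand, at chr6:122707414-122707427, 75 to 62 bases before the start, and are printed as 1 run of capitals. Of 32851 windows of this length in the table, 4.63% held an octamer and 12.6% a SOX core, while the spaced pair was found in 2, or 0.00609%, both of them overlapping windows of *Nanog*. Only these exact letters and this spacing were counted, so the share does not measure how rare SOX and octamer pairs of other spellings are. The *Pou5f1* window held a GC box 46 to 40 bases before the start, as 23.2% of all windows hold at least 1. The window at the other annotated start of *Pou5f1*, not printed, held a SOX core. A match is a run of letters, and occupancy was not measured here.

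*Sox2*, an HMG-box gene that partners OCT4 and also marks neural progenitors, showed no such separation. Its brighter probe (ILMN_2656102) gave 8.86, 9.36 and 9.23 in *Zic2* iso/iso pools and 9.17, 9.03 and 9.05 in wildtype pools. *Zic2* iso/iso pool 1 was the lowest of the 6 and pool 2 the highest, so the groups overlapped. The log2 difference was 0.07 (95% interval −0.16 to 0.30, adjusted p = 0.979), and it turned to −0.04 without *Zic2* iso/iso pool 2. The other *Sox2* probe lay below the background level, with a difference of −0.11 (adjusted p = 0.954).

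Among the naive factors, *Klf2* was the member that was lower without overlap. It encodes a Krüppel-like zinc finger factor that is also expressed in endothelium exposed to flow. Its probe gave 7.40, 7.45 and 7.45 in *Zic2* iso/iso pools and 7.57, 7.67 and 7.68 in wildtype pools. All *Zic2* iso/iso pools were below the background level and all wildtype pools above it, so the difference itself carries no fold. The wildtype mean was 1.12-fold above the background level, a figure that leaves out the spread between pools. The log2 difference was −0.21 with a 95% interval of −0.35 to −0.07. This interval includes changes smaller than 1.12-fold, so that figure is not a minimum. The means were 7.43 ± 0.03 in *Zic2* iso/iso and 7.64 ± 0.06 in wildtype (SD, n = 3 each), and the fit did not pass (limma adjusted p = 0.657). Endothelial markers were measured beside it: none of the 12 passed the test, 11 were above the background level, 3 were lower in every *Zic2* iso/iso pool than in any wildtype pool, and none was higher in the same way. Over all 10439 genes above the background level, 4.88% were higher and 7.15% lower without overlap. The mean of those 11 was 8.85, 8.89 and 8.71 in *Zic2* iso/iso pools and 8.94, 8.94 and 8.93 in wildtype pools, with *Emcn* (endomucin) at −0.39 (adjusted p = 0.686) and *Cldn5* (an endothelial claudin) at −0.29 (adjusted p = 0.612). Their part in the *Klf2* values was not tested.

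*Klf4*, *Zfp42* and *Utf1* were at or near the background level, and *Esrrb* was above it. All 3 *Klf4* probes lay below it, with differences of −0.04, −0.01 and 0.06 (adjusted p = 0.980, 0.997 and 0.969), and no *Klf4* difference was detectable at this signal. *Esrrb*, an orphan nuclear receptor that also serves the extra-embryonic ectoderm, gave 8.00, 8.01 and 8.03 in *Zic2* iso/iso pools and 7.95, 8.09 and 7.96 in wildtype pools at its brighter probe. The log2 difference of *Esrrb* was 0.01 at both probes, with 95% intervals of −0.13 to 0.15 and −0.14 to 0.15. At the brighter probe, a log2 difference as large as that of *Nanog* lies outside the interval, for intensities without background subtraction. The second probe, with a mean of 7.58 in both genotypes, is close to the background level of 7.47. Unsubtracted background shrinks differences there, so its interval sets no limit on the change in RNA. *Zfp42*, the classical marker of undifferentiated stem cells, gave 7.47, 7.47 and 7.45 in *Zic2* iso/iso pools and 7.37, 7.32 and 7.15 in wildtype pools. Its mean lay below the background level in both genotypes, so the difference of 0.18 (95% interval 0.03 to 0.34, adjusted p = 0.775) carries no fold. *Utf1*, a chromatin-associated factor of the epiblast and germ line, gave 7.48, 7.40 and 7.61 in *Zic2* iso/iso pools and 7.39, 7.36 and 7.38 in wildtype pools. The 0.12 difference at *Utf1* (95% interval −0.03 to 0.27, adjusted p = 0.898) was smaller than the range among the *Zic2* iso/iso pools.

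**Figure D3:**
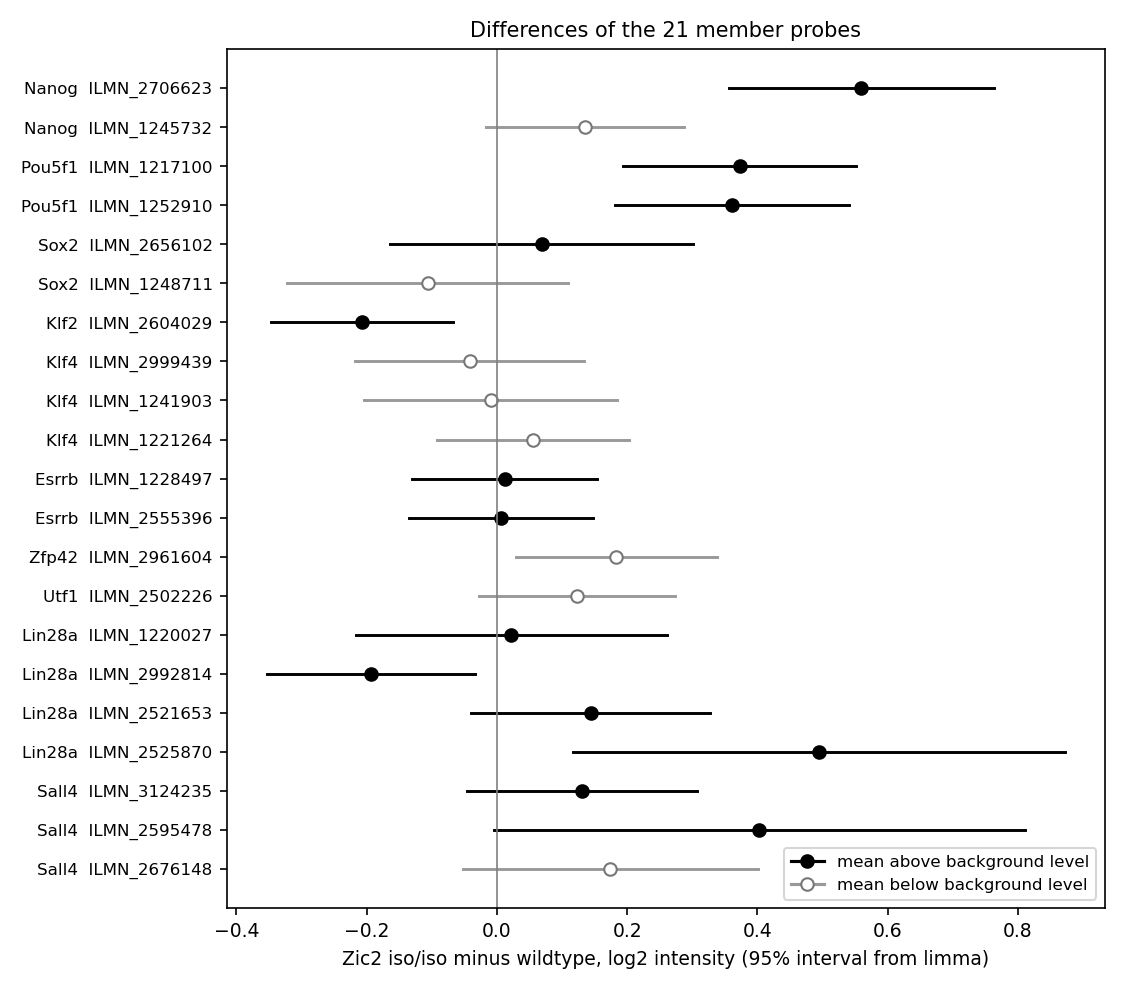
Log2 difference, *Zic2* iso/iso minus wildtype, with its 95% interval from limma (horizontal axis), for each of the 21 probes of the 10 genes, filled where the mean of the probe is above the background level. The bright *Nanog* probe (0.56) and both *Pou5f1* probes (0.37 and 0.36) lie to the right of 0 and the *Esrrb* probes at 0.01. *Klf2*, whose *Zic2* iso/iso values are below the background level, lies to the left.

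The start-site windows of *Zfp42*, *Utf1* and *Klf2*, the members at or near background whose pools did not overlap, are shown in the same way and with the same motifs in capitals. They lie at chr8:43306960-43307259 (−), chr7:139943606-139943905 (+) and chr8:72318812-72319111 (+) on GRCm38.p6.
Zfp42: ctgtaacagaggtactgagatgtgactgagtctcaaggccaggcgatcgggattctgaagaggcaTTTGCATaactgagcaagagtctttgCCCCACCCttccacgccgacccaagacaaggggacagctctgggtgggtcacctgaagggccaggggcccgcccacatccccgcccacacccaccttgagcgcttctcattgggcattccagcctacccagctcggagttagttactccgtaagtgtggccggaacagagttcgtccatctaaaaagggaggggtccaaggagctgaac
Utf1: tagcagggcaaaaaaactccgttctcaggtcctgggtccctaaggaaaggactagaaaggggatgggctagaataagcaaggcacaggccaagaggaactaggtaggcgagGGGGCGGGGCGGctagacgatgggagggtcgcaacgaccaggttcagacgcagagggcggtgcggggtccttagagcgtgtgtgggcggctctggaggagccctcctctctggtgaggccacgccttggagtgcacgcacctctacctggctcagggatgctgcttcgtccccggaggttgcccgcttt
Klf2: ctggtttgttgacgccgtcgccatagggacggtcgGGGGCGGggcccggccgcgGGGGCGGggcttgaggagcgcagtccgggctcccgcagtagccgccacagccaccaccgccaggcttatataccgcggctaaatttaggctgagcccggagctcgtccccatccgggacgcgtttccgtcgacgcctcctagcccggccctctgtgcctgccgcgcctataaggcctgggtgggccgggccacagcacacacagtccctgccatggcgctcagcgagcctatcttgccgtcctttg
The *Zfp42* window held an octamer 185 to 179 bases before the start and a KLF box 159 to 152 bases before it. The *Utf1* window held a pair of overlapping GC boxes, which share 2 bases, and the *Klf2* window held 2 separate GC boxes. RefSeq windows were matched for 9 of the 10 genes, 12 windows in all. Among these 9, an octamer was in 3 (*Nanog*, *Sox2* and *Zfp42*), a SOX core in 4, a KLF box in 2 and a GC box in 5. None held the ZIC core, which 10.5% of all windows hold, or the ESRRB core, which 0.423% hold. Other spellings were not searched, among them those of the ZIC2 sites that the paper tested in a *Nodal* enhancer. A window without the core may therefore still hold a ZIC2 site. The KLF box was in 9.99% of all windows. *Sall4* is named only.

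*Lin28a* encodes an RNA-binding protein that blocks maturation of let-7 microRNAs, and its 4 probes did not run in 1 direction. All were bright, with means between the 87.4th and 89.9th percentile of all probes. Probe ILMN_2525870 gave 9.62, 9.85 and 10.12 in *Zic2* iso/iso pools and 9.87, 9.14 and 9.10 in wildtype pools. Wildtype pool 1 lay within the *Zic2* iso/iso values and the other wildtype pools below them, and the difference of 0.49 (95% interval 0.12 to 0.87, adjusted p = 0.734) ran over 0.36 without wildtype pool 3 (adjusted p = 0.999) to 0.75 without wildtype pool 1 (adjusted p = 0.0574) when each pool was left out. Probe ILMN_2992814 ran the other way, at 9.99, 10.06 and 9.89 in *Zic2* iso/iso pools and 10.12, 10.12 and 10.28 in wildtype pools, without overlap (difference −0.19, 95% interval −0.35 to −0.03, adjusted p = 0.760). The 2 remaining probes overlapped, with differences of 0.02 (95% interval −0.22 to 0.26) and 0.14 (95% interval −0.04 to 0.33). Where on the transcript each probe lies was not examined, so the array gives no single direction for *Lin28a*.

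*Sall4*, a spalt-family zinc finger gene required for the growth of the early embryo, was the brightest member. Probe ILMN_3124235 lay at the 98.4th percentile, with 12.81, 12.91 and 12.87 in *Zic2* iso/iso pools and 12.82, 12.83 and 12.55 in wildtype pools. The difference was 0.13 (95% interval −0.05 to 0.31, adjusted p = 0.915), and wildtype pool 3 was the lowest of the 6. Without that pool the difference was 0.041 (adjusted p = 0.999). Probe ILMN_2595478, annotated to another transcript of the gene, gave 11.41, 10.79 and 11.66 in *Zic2* iso/iso pools and 11.24, 10.65 and 10.77 in wildtype pools, a difference of 0.40 (95% interval −0.01 to 0.81, adjusted p = 0.836) with overlap. It was 0.22 without *Zic2* iso/iso pool 3 and 0.65 without *Zic2* iso/iso pool 2 (adjusted p = 0.944 and 0.381). The dimmest probe, on the same transcript as ILMN_2595478, lay below the background level at 0.17 (adjusted p = 0.906).

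**Figure D4:**
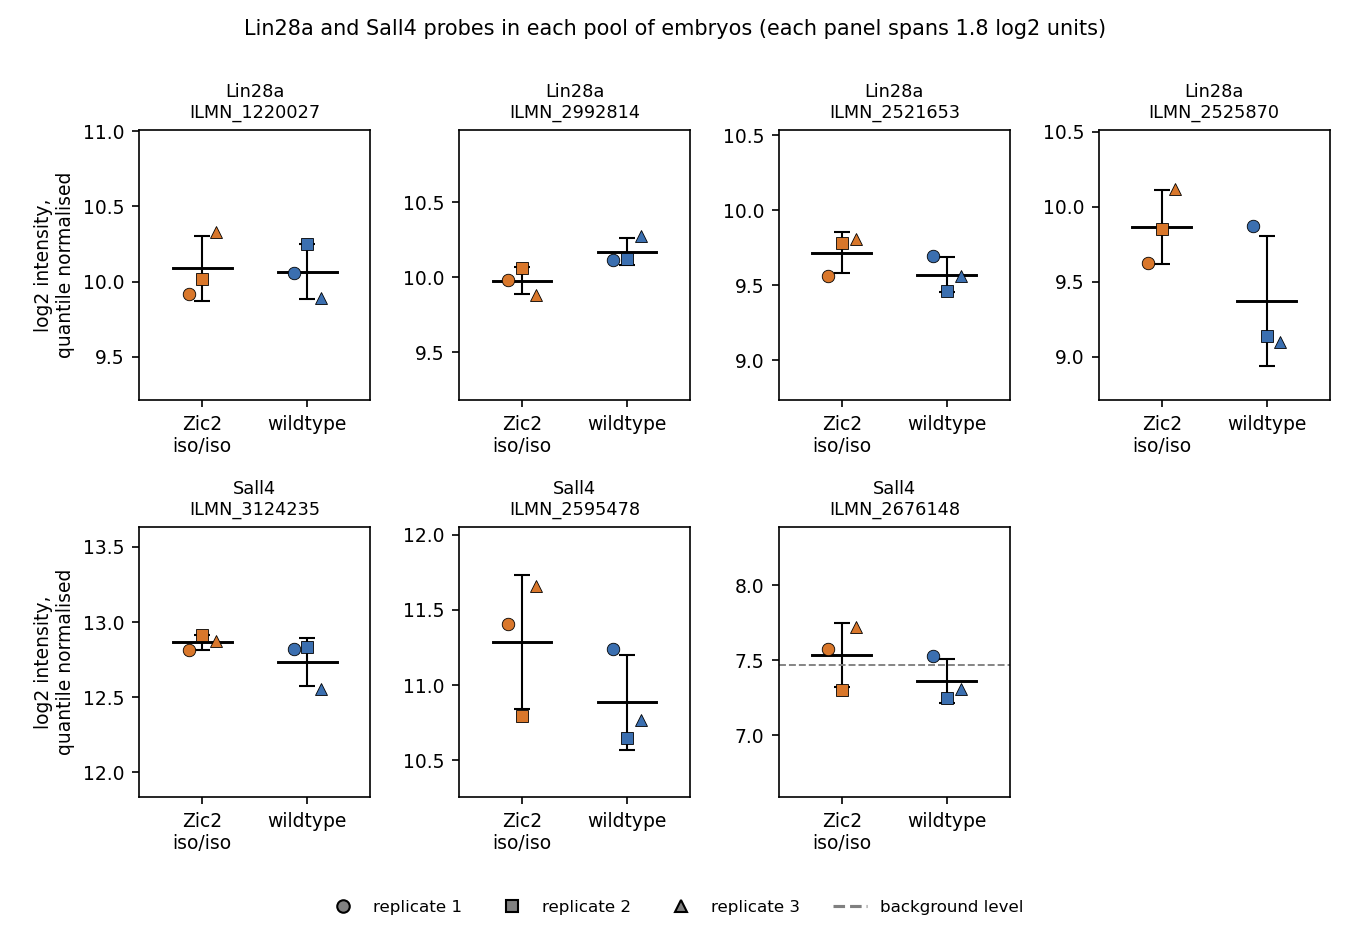
Log2 intensity after quantile normalisation (vertical axis) of the 4 *Lin28a* and 3 *Sall4* probes in the 3 *Zic2* iso/iso pools and the 3 wildtype pools, with points for pools, a long bar for the mean and whiskers for the SD. *Lin28a* probes run in both directions, 0.49 at one and −0.19 at another, and the genotypes overlap in all panels but that of ILMN_2992814.

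Other genes of the pluripotency programme were counted from lists, each gene by its brightest probe, and none passed the test. Of 16 naive pluripotency genes, 10 were above the background level, with a median difference of 0.05 beside −0.007 over the 10439 genes above it; 1 was higher without overlap and 1 lower, a count near the 4.88% and 7.15% of all genes. *Dppa5a*, an RNA-binding protein gene of stem cells, gave 8.44, 8.25 and 8.53 in *Zic2* iso/iso pools and 8.17, 8.15 and 8.21 in wildtype pools (difference 0.23, adjusted p = 0.704). *Klf5*, a Krüppel-like factor that overlaps in function with *Klf2* and *Klf4*, differed by 0.24 with overlap (adjusted p = 0.829). Of 11 formative and primed epiblast genes measured, 9 were above the background level, with a median of −0.06. In that list the neural-leaning POU factor *Pou3f1* was lower, at 9.23, 9.55 and 9.70 in *Zic2* iso/iso pools and 10.11, 9.91 and 9.88 in wildtype pools (difference −0.47, adjusted p = 0.308), and the epithelial cadherin *Cdh1* was higher by 0.29 without overlap (adjusted p = 0.376).

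*Nanog* and *Pou5f1* are also expressed in primordial germ cells and in the caudal epiblast, and the markers of these cells were set beside them. Of 11 germ cell genes, 6 were above the background level and their mean was 10.14, 10.19 and 10.21 in *Zic2* iso/iso pools and 10.14, 10.13 and 10.14 in wildtype pools, with a median difference of 0.02. The listed genes *Prdm1*, *Prdm14*, *Dppa3*, *Nanos3* and *Dazl* were below the background level. The mean therefore leaves them out and rests on *Tfap2c*, *Ifitm3*, *Ifitm1*, *Dnd1*, *Kit* and *Ddx4*. Whether these 6 were read from germ cells or from other cells of the whole embryo was not tested. The receptor gene *Kit* (0.25, adjusted p = 0.759) and *Ifitm3* (0.08, adjusted p = 0.964) showed the largest differences among them. Of 12 genes of the caudal epiblast and streak, 11 were above it, with a mean of 10.07, 10.04 and 10.25 in *Zic2* iso/iso pools and 10.04, 10.07 and 9.96 in wildtype pools and a median difference of 0.09. The caudal homeobox gene *Cdx2* gave 12.52, 12.40 and 12.66 in *Zic2* iso/iso pools and 12.34, 12.20 and 12.07 in wildtype pools without overlap (difference 0.32, adjusted p = 0.495), and *Nkx1-2*, a marker of the caudal lateral epiblast, differed by 0.24 (adjusted p = 0.795). The part of these cells in the *Nanog* and *Pou5f1* values was not tested.

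Markers of differentiated tissues also differed in mean between the genotypes, though none passed the test. The 5 heart genes had a median difference of −0.43, led by *Actc1* at −0.66 (adjusted p = 0.746) and *Myl7* at −0.53 (adjusted p = 0.759), both contractile protein genes, and their mean was 9.38, 9.48 and 8.89 in *Zic2* iso/iso pools and 9.70, 9.49 and 9.63 in wildtype pools. The 3 somite genes above the background level had a median of −0.28 and a mean of 8.90 to 9.24 in *Zic2* iso/iso pools and 9.23 to 9.46 in wildtype pools, with *Tcf15* lower without overlap (−0.52, adjusted p = 0.269) and *Meox1* at −0.28 (adjusted p = 0.744). Of 5 primitive blood genes, 4 were above the background level, with a mean of 7.92 to 9.71 in *Zic2* iso/iso pools and 9.05 to 9.41 in wildtype pools. The embryonic globin gene *Hbb-bh1* gave 12.87, 10.75 and 9.04 in *Zic2* iso/iso pools and 11.55, 11.74 and 12.17 in wildtype pools, and *Hba-x* differed by −0.80 (adjusted p = 0.918). The *Zic2* iso/iso pools thus ran in the same order for *Hbb-bh1* as for *Nanog*, pool 1 highest and pool 3 lowest. The wildtype pools ran in opposite orders, *Hbb-bh1* rising and *Nanog* falling (7.85, 7.83 and 7.68) from pool 1 to pool 3. For *Pou5f1* the highest *Zic2* iso/iso pool was pool 3 at ILMN_1217100 and pool 1 at ILMN_1252910, with pool 2 lowest at both. The 6 visceral endoderm markers had a median of 0.17 and a mean of 11.05 to 11.54 in *Zic2* iso/iso pools and 10.87 to 11.23 in wildtype pools, with *Apob* at 0.50 without overlap (adjusted p = 0.147) and *Afp* at 0.30 (adjusted p = 0.880). Of 2 anterior neural plate genes with a mean above the background level, *Rax* was lower without overlap at −0.34 (adjusted p = 0.292) and *Otx1* was at −0.17 (adjusted p = 0.909). *Rax* gave 7.26, 7.32 and 7.40 in *Zic2* iso/iso pools, all below the background level, and 7.52, 7.75 and 7.73 in wildtype pools, so its difference carries no fold. All 4 general neural markers were below the background level. Of 4 trophoblast and decidua genes measured, 2 were above that level, *Prl8a2* at −0.46 (adjusted p = 0.906) and *Hand1* at 0.003 (adjusted p = 0.999). The paper's methods describe the embryos of a pool as matched by stage, and the sample titles give genotype and replicate only. The part of stage or tissue makeup in the *Nanog* and *Pou5f1* values was not tested.

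**Figure D5:**
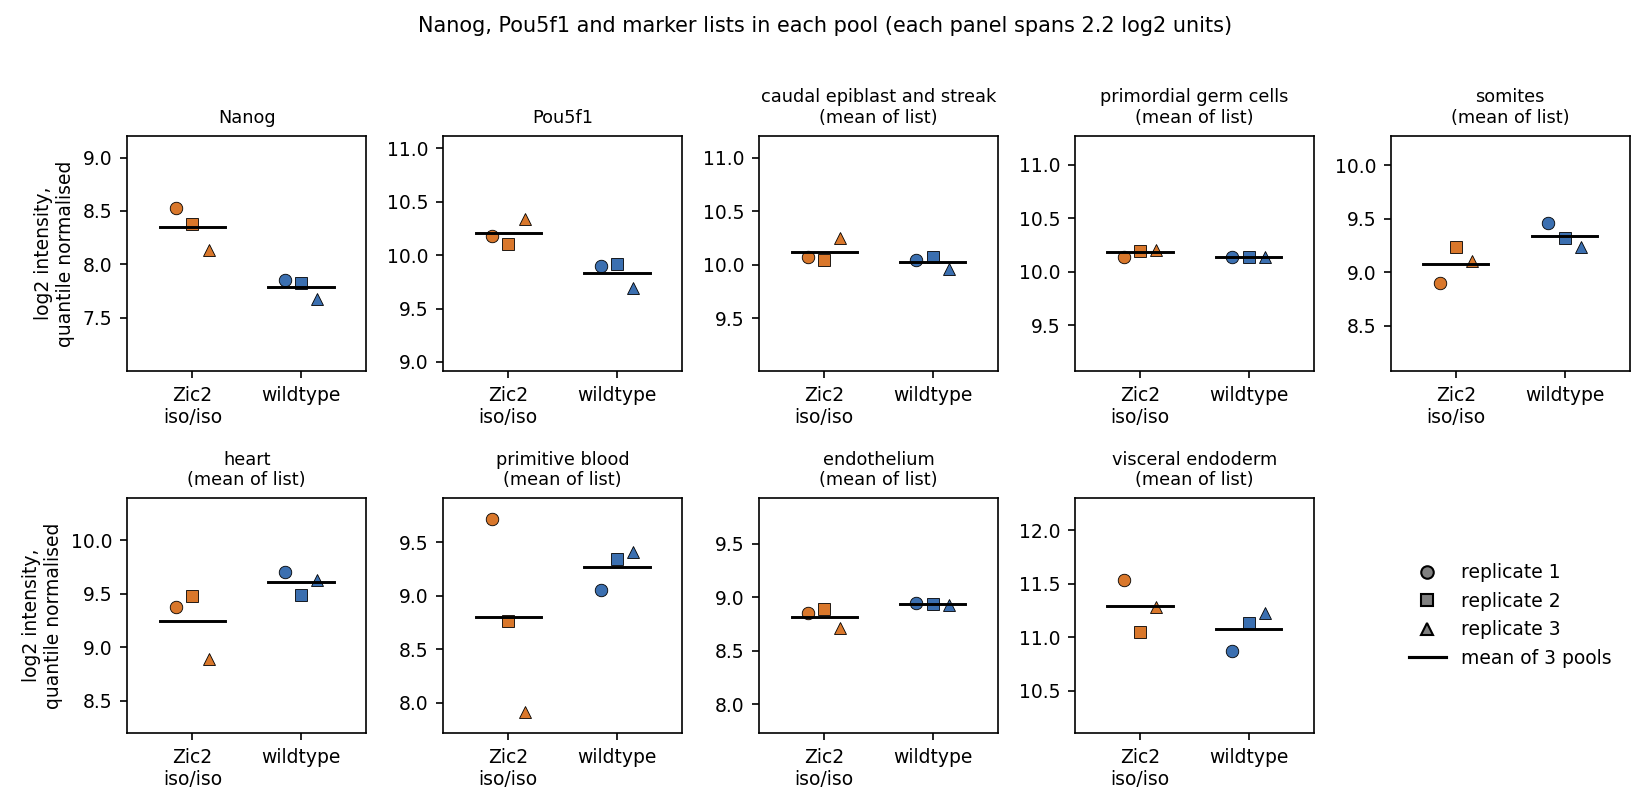
Log2 intensity after quantile normalisation (vertical axis) of the brightest *Nanog* and *Pou5f1* probes and the mean of each marker list, over genes above the background level, in the 3 *Zic2* iso/iso pools and the 3 wildtype pools, with a bar for the mean of 3 pools. *Nanog* and *Pou5f1* do not overlap between genotypes. The mean of the 6 listed germ cell genes above the background level lies between 10.13 and 10.21 in all pools. Primitive blood spreads most, at 9.71, 8.77 and 7.92 in the *Zic2* iso/iso pools.

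Partners and relatives of the network were counted last. All 10 measured subunits of the NuRD complex, a chromatin remodeller that restrains pluripotency genes, were above the background level, with a median difference of 0.01 and *Gatad2b* (0.17, adjusted p = 0.933) and *Mta1* (0.16, adjusted p = 0.898) at the top. Of 10 genes of the Lin28 and let-7 axis, 8 were above it, with a median of 0.04. *Trim71*, a let-7 target (0.26, adjusted p = 0.704), and *Igf2bp1*, an RNA-binding protein gene (0.24, adjusted p = 0.683), differed most, the second without overlap. Among 19 genes on the list of Sox, Klf, Sall, POU and Esrr relatives, which also holds *Zfp42*, 14 were above the background level with a median of −0.006. Of these, 1 was higher and 1 lower without overlap, near the 4.88% and 7.15% of all genes, and *Pou3f1* and *Klf5* had the largest differences.

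The genes whose pattern over the 6 pools was closest to that of *Nanog* were *Ap2b1*, a clathrin adaptor subunit gene, *Hes5*, a target of Notch, *Polg*, the mitochondrial DNA polymerase gene, *Dnajc3*, a chaperone gene of the endoplasmic reticulum, and *Hic2*, a transcriptional repressor gene. Likeness was measured by the root mean square difference of log2 values after each gene was centred on its own mean, among 10438 other genes above the background level. It was 0.111 for *Ap2b1*, 0.127 for *Hes5*, 0.130 for *Polg*, 0.131 for *Dnajc3* and 0.135 for *Hic2*. All of these were higher in every *Zic2* iso/iso pool, and *Dnajc3* was the one that passed the test, at 9.99, 9.74 and 9.83 in *Zic2* iso/iso pools and 9.16, 9.22 and 9.02 in wildtype pools (difference 0.72, adjusted p = 0.0048). *Dnajc3* lies on chromosome 14, as does *Zic2*. An effect of ZIC2 on it and one of DNA from the mutagenised strain linked to the allele cannot be told apart. Of the other members, *Pou5f1* was nearest to *Nanog*, at 0.197 and rank 88, followed by *Sall4* at 0.254 and rank 846. *Esrrb*, *Sox2*, *Lin28a* and *Klf2* ranked 3612, 6609, 8076 and 9775. The pattern includes the difference between the genotypes, so these ranks describe the pools and add no test.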

How the data were processed

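RNA from 3 pools of *Zic2* iso/iso and 3 pools of wildtype embryos, 8 embryos each, was hybridised by the authors to Illumina arrays. The authors' methods use a variance stabilising normalisation, but the deposited values are linear probe intensities, neither background-subtracted nor normalised. A floor of 1 was set, then log2 values were quantile normalised and fitted with limma 3.58.1 in R 4.3.3 (lmFit, eBayes, no covariate), with Benjamini-Hochberg adjustment over all 45281 probes and a threshold of 0.05. The background level is the 95th percentile of 1608 probes for vomeronasal and olfactory receptors, beta-defensins and keratin-associated proteins. Probes carry 1 symbol (34885), several (18) or none (10378). A gene on a list is represented by its brightest probe. Named were all members, *Zic2*, the 2 largest differences above the background level in each list, and the 5 nearest genes to *Nanog*; other genes, such as markers listed as below the background level, were named after their values were seen. The members and lists were chosen with earlier results of these data known. Lists covered naive, formative and primed, germ cell, caudal, anterior neural, NuRD, Lin28 and let-7, Sox, Klf and Sall relatives, endothelium, blood, heart, somites, visceral endoderm, trophoblast and neural genes. The steps were tested on simulated data. Alternatives changed normalization, background correction, transformation, filter, variance prior, block, threshold and pools. Sequences are from RefSeq (GRCm38.p6). With 3 arrays a genotype, their number limits the precision.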

Additional observations from a re-analysis of the deposited data

How the results depend on the processing

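The number of probes called, 20 as reported, was 4 without normalization between arrays, 11 with each array centred on its median, 31 with an intensity trend and 34 at a threshold of 0.10, and 14 to 29 when each pool was left out in turn. The number of member probes called, 0 as reported, was 1 after normexp, after the variance stabilising normalisation, with the trend and at the threshold of 0.10, and 0 to 1 when a pool was left out; the probe was the bright one of *Nanog*. Its difference was 0.77 under normexp and under variance stabilisation, 0.56 with the trend, and 0.46 to 0.67 without a pool (adjusted p 0.0204 to 0.422). Same-numbered pools did not deviate together (r = −0.126, −0.0202 and −0.122), no pool correlated best with its own number, and the numbers were not taken as a pairing. With the replicate number as a block, 1 member probe was called, *Nanog*, at 0.56 (adjusted p = 0.0492). For the other 20 probes, 258 of 272 values kept their direction and their side of the threshold, and 14 turned sign. *Klf4* became 0.014 (ILMN_2999439) and 0.023 (ILMN_1241903) without normalization. Without a pool, values ran over −0.096 to 0.033 and −0.11 to 0.073 for these *Klf4* probes, −0.038 to 0.21 for *Sox2* ILMN_2656102, −0.10 to 0.11 for *Lin28a* ILMN_1220027, −0.013 to 0.055 for *Esrrb* ILMN_1228497 and −0.024 to 0.027 for *Esrrb* ILMN_2555396. The cause was not tested. The filter on dim probes gives no value for the 8 member probes below the background level, which the array does not separate from unexpressed genes.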
